A study of Homo sapiens with 6 samples.

Results

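RNA polymerase III makes short noncoding RNAs that work inside ribonucleoproteins, and 7 of these RNAs were followed here through 6 iCLIP libraries. The cells were BEAS2B, an immortalized human line of bronchial epithelial origin. The 7 are RMRP, RPPH1, RN7SK, RN7SL1, RN7SL2, RNY1 and RNY3. The other 174731 regions of the series are strand-specific 10 kb windows with at least 1 event. The members were chosen by gene, with crosslink counts of these libraries already known, and every crosslink position on the gene's strand within 20 nt of its hg19 interval was taken. Their counts and positions are therefore given as a description without a test.

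The series mapped RNA contacts of QKI-5, the nuclear isoform of the STAR-family RNA-binding protein Quaking, by iCLIP, in which ultraviolet light links protein to RNA and the cDNA end marks the linked nucleotide. Per the labels, 3 libraries were made with a self-made QKI-5 antibody and 3 control libraries with none, all from BEAS2B cells without any stated genetic change. The labels give the same protocol for both groups, with 5 dishes of 10 cm irradiated at 150 mJ/cm2 and RNase A used at a high or a low dilution. They do not say which dilution each library had, nor whether replicates were separate cultures, so the spread between libraries may be technical.

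RMRP is the RNA of RNase MRP, which takes part in ribosomal RNA processing, and RPPH1 is the RNA of RNase P, which trims the 5′ end of precursor tRNAs. Both RNAs share protein subunits. RN7SK holds the kinase P-TEFb in an inactive complex with HEXIM proteins, and LARP7 binds its 3′ end. RN7SL1 and RN7SL2 are near-identical genes for the RNA of the signal recognition particle, which brings nascent secretory proteins to the endoplasmic reticulum. RNY1 and RNY3 encode Y RNAs, which bind the Ro60 and La proteins.

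On hg19, RMRP spans 35657748 to 35658015 on the minus strand of chromosome 9 and RPPH1 spans 20811230 to 20811570 on the minus strand of chromosome 14. RN7SK spans 52860418 to 52860749 on the plus strand of chromosome 6. RN7SL1 lies at 50053297 to 50053596 on the plus strand of chromosome 14 and RN7SL2 at 50329271 to 50329567 on its minus strand. RNY1 and RNY3 are neighbours on the plus strand of chromosome 7, at 148684228 to 148684339 and 148680846 to 148680946. Positions below count from 1 at the 5′ end of the interval, and position 0 is the nucleotide just before it. The interval ends were not checked against an hg19 annotation, so positions -1 and 0 may be the first nucleotides of an RNA. Exons, introns and neighbouring genes were not assigned, since no hg19 annotation was used here.

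The QKI-5 libraries held 2143279 to 7283982 events and the controls 29810 to 137926. Levels are in EPM, an RNA's events for each 1000000 events that its library held. A count of 0 allows up to 3 events, and this floor was 0.412 to 1.40 EPM in QKI-5 libraries and 21.8 to 101 EPM in controls. The sources used here do not say whether PCR copies were merged, so floors and intervals cover counting error only. EPM is a share of a library and does not tell more bound RNA per cell from less binding elsewhere.

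RMRP, RPPH1 and RN7SK carried nearly all events of the 7 RNAs, with overlapping levels with and without antibody. The 7 RNAs together took 0.0825, 0.145 and 0.131% of the events of QKI-5 replicates 1, 2 and 3. In control replicates 1, 2 and 3 they took 0.0812, 0.171 and 0.124%, and the groups overlapped. The group means were 0.119 ± 0.0326% with antibody and 0.126 ± 0.0450% without (SD, n = 3 each), a ratio of 0.951. RN7SL1, RN7SL2, RNY1 and RNY3 together gave 61 of 6012 member events in QKI-5 replicate 1, 11 of 3099 in replicate 2 and 2 of 3781 in replicate 3. In the controls they gave 1 of 112, 0 of 71 and 0 of 37.

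**Figure D1:**
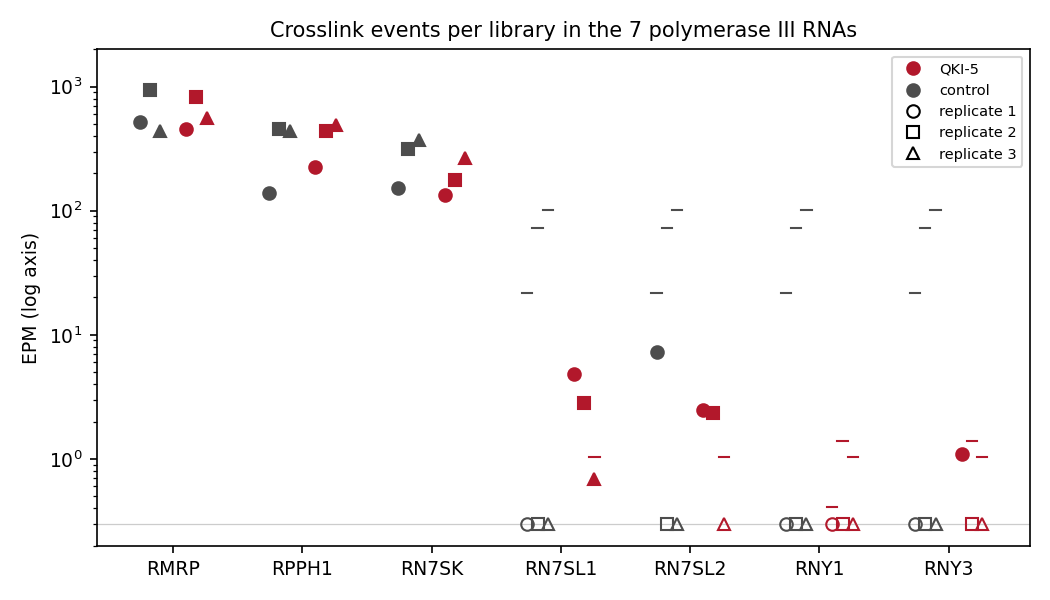
Events per 1000000 events of the library (EPM, log axis) for each of the 7 RNAs, with 3 control and 3 QKI-5 libraries as separate points. Open points on the grey line are libraries with 0 events, and short bars mark the floor of 3 events for libraries with 3 events or fewer. RMRP, RPPH1 and RN7SK lie between 134 and 940 EPM in all 6 libraries, and no QKI-5 library exceeds 4.81 EPM in the other RNAs.

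RMRP was the most crosslinked of the 7 in group mean. With antibody, replicates 1, 2 and 3 gave 458, 829 and 557 EPM, from 3338, 1777 and 1610 events. The controls held 515, 940 and 436 EPM, from 71, 39 and 13 events. Replicate 2 was the highest library in both groups, and the groups overlapped over most of their range. The means were 615 ± 192 EPM with antibody and 630 ± 271 EPM without (SD, n = 3 each). By mean EPM, RMRP was in place 22 of 174738 regions in QKI-5 libraries and in place 28 in controls, although most of the others are windows of 10 kb.

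Levels of RPPH1 with antibody were 224, 436 and 487 EPM for replicates 1, 2 and 3, from 1634, 935 and 1406 events. In the controls it held 138, 458 and 436 EPM, from 19, 19 and 13 events. Replicate 1 was the lowest library in both groups, and the groups overlapped. The means were 382 ± 139 EPM and 344 ± 179 EPM (SD, n = 3 each), which put RPPH1 in place 30 in QKI-5 libraries and 43 in controls.

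RN7SK levels with antibody were 134, 175 and 264 EPM for replicates 1, 2 and 3, from 979, 376 and 763 events. Its control levels were 152, 313 and 369 EPM, from 21, 13 and 11 events. Replicate 3 was the highest and replicate 1 the lowest in both groups. The QKI-5 level was the lower one for each replicate number, by ratios of 0.883, 0.560 and 0.716, while the ranges of the groups overlapped. The means were 191 ± 66.3 EPM and 278 ± 113 EPM (SD, n = 3 each), and RN7SK was in place 100 in QKI-5 libraries and 49 in controls. Ratios by replicate number went both ways for the other RNAs, with 0.890, 0.882 and 1.28 for RMRP and 1.63, 0.952 and 1.12 for RPPH1. Replicate numbers were not taken as pairs, so no decrease of RN7SK is read from its ratios.

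Per length, RMRP stood highest among the 3 in each library. It held 200 ± 62.3 EPM per 100 nt in QKI-5 libraries, against 100.4 ± 36.5 for RPPH1 and 51.4 ± 17.8 for RN7SK (SD, n = 3 each, flanks included). In controls the order of the means was the same, at 205 ± 88.1, 90.3 ± 47.0 and 74.8 ± 30.3 EPM per 100 nt. RPPH1 exceeded RN7SK per length in each QKI-5 library, by 1.63, 2.43 and 1.80 times, and in control replicates 2 and 3. In control replicate 1 the ratio of RPPH1 to RN7SK was 0.883. RMRP made up 56.1, 57.5 and 42.6% of the summed events of the 3 RNAs in QKI-5 replicates 1, 2 and 3. In the controls it made up 64.0, 54.9 and 35.1%, so replicate 3 had the smallest RMRP share in both groups.

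Across all regions, each RNA formed its own region and was fitted with the 10 kb windows by the quasi-likelihood test of edgeR. Only RMRP, RPPH1 and RN7SK passed its filter on low counts, and the other 4 RNAs did not. Of 29960 regions tested, 0.861% were called in either direction at an adjusted p under 0.05, 0.754% higher and 0.107% lower with antibody. None of the 3 RNAs was called by edgeR (0 of 3), and the DESeq2 Wald test also called 0. At an unadjusted p under 0.05 each tool had 1 of the 3, RPPH1, where edgeR had 18.4% of all regions. Every QKI-5 level lay above every control level in 23.7% of the tested regions and below in 3.65%, and for each of the 3 RNAs the groups overlapped. Nothing is read from these counts, because the RNAs were chosen with the data known.

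The log2 fold change, QKI-5 over control, was 0.71 (SE 0.54) for RMRP, 1.17 (SE 0.53) for RPPH1 and 0.39 (SE 0.49) for RN7SK with TMM scaling. The median over all tested regions was 0.78 on this scale. Relative to that median RMRP was at -0.07, RPPH1 at 0.39 and RN7SK at -0.39. With library totals the median was 0.22 and the log2 fold changes were -0.02, 0.37 and -0.34, so the sign for RMRP and RN7SK depends on the scaling. With TMM scaling RMRP lay at percentile 47.4 of the log2 fold changes of all regions, RPPH1 at 62.5 and RN7SK at 35.2. The side of the median was not stable for 2 of the RNAs. RPPH1 lay below the median without QKI-5 replicate 2 or 3 (-0.12 and -0.22), with each position counted once (-1.94) and without control replicate 1 (-5.39, in a fit whose median was 6.69). RMRP lay above it without control replicate 2 (0.21). RN7SK lay below it in each of the 15 settings run, which share libraries. Each median covers only the regions tested in its setting, 29960 in the main fit. These were 951 and 937 without QKI-5 replicates 2 and 3 and 20702 with each position counted once. Without control replicates 1 and 2 they were 52140 and 54520. The median can thus move with the set of regions. Only 118 of the 10 kb windows held at least 30 events over the 3 controls, where RMRP, RPPH1 and RN7SK held 123, 51 and 45. Most fold changes behind the median and the percentiles therefore rest on fewer control events. Neither compares the 3 RNAs with regions of like control depth.

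**Figure D2:**
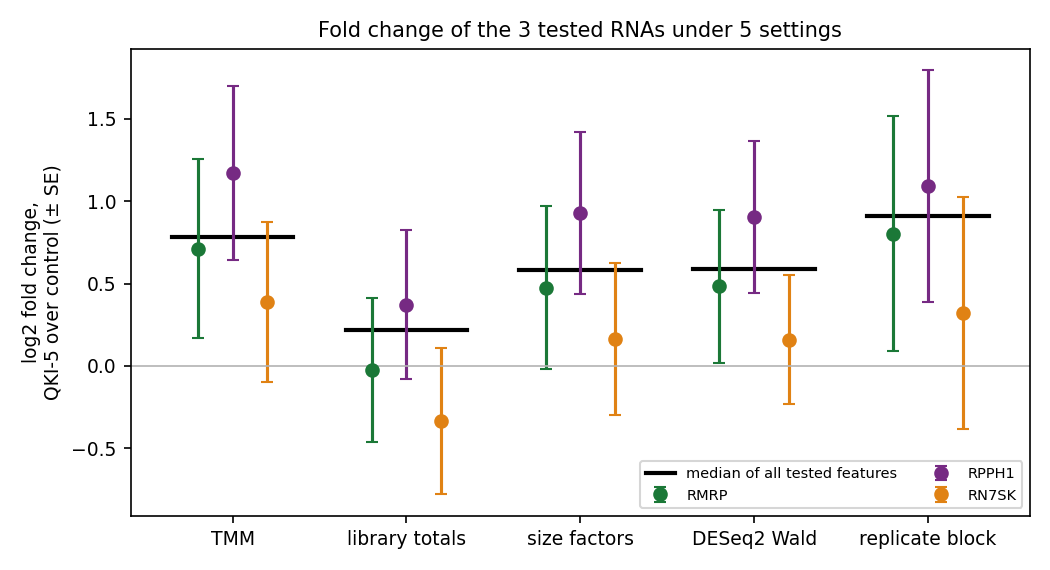
Log2 fold change, QKI-5 over control, of RMRP, RPPH1 and RN7SK (points, bars ± SE) under 5 settings, with the median of all tested features as a black line. RPPH1 lies above the median and RMRP and RN7SK below it in these 5 settings, but not in all others: RMRP and RPPH1 change sides when some single libraries are left out, and RPPH1 with each position counted once.

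RMRP, RPPH1 and RN7SK stood out sharply from their surroundings. On the gene's strand, RMRP held 6725 of the QKI-5 events of its region and window, and the rest of its 10 kb window held 10. RPPH1 held 3975 against 10, and RN7SK 2118 against 0. In the controls the rest of these 3 windows held 0 events. The contrast was smaller or absent for the sparse RNAs, with 43 QKI-5 events against 2 in the rest of the window for RN7SL1, 23 against 6 for RN7SL2, 8 against 3 for RNY3 and 0 against 3 for RNY1. From 21 to 300 nt upstream there was no event for any of the 7 RNAs in any library. From 21 to 300 nt downstream the QKI-5 libraries held 2 events for RPPH1, 4 for RN7SL2 and 1 for RNY3, and the controls held 0. Within the 20 nt upstream, events reached only to position -3 in RMRP, -2 in RPPH1 and 0 in RN7SK, and the 20 nt downstream held none.

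RMRP was crosslinked along most of its length, with 2 peaks. Its interval spans 268 nt. The nucleotide at position 226 (35657790 on chromosome 9) was the most hit one in each of the 6 libraries. It took 332, 216 and 194 events in QKI-5 replicates 1, 2 and 3 and 14, 10 and 3 in controls. These were 9.95, 12.2 and 12.0% of RMRP events with antibody and 19.7, 25.6 and 23.1% without, so every control share was the higher. A second peak lay at positions 55 to 59. Peaks are named as the 5 nt with the largest mean share in QKI-5 libraries and the next such 5 nt at least 20 nt away, a choice made after the values were seen that favours QKI-5. This second peak took 22.6, 18.7 and 19.4% of RMRP events in the antibody libraries 1, 2 and 3, and 11.3, 17.9 and 7.69% in the controls. The 95% exact binomial intervals of the controls run from 0.195 to 36.0%, since these shares rest on 8, 7 and 1 events. Position 59 alone took 189, 103 and 125 events with antibody and 1, 0 and 0 without. As shares of RMRP events these were 5.66, 5.80 and 7.76% against 1.41, 0 and 0%. At the adjacent position 58 the shares overlapped, with 5.57, 5.63 and 5.96% against 2.82, 10.3 and 0%.

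The balance of these peaks is free of library scaling. Events at 55 to 59 over events at 226 to 230 gave 1.33, 1.04 and 0.752 in QKI-5 replicates 1, 2 and 3 and 0.444, 0.636 and 0.167 in the controls. Every QKI-5 ratio lay above every control ratio, at 1.04 ± 0.288 against 0.416 ± 0.236 (SD, n = 3 each). The control ratios rest on 8 over 18, 7 over 11 and 1 over 6 events. Both peaks were picked on the QKI-5 shares of these same libraries, so this order is a description only. The part of RMRP nearer the 5′ end, positions 1 to 134, held 52.4, 45.0 and 48.6% of its events in QKI-5 libraries and 38.6, 35.1 and 30.8% in controls. The groups did not overlap, with means of 48.6 ± 3.70% and 34.8 ± 3.91%. The control with the fewest events, replicate 3, had 4 of 13 events there, with an interval of 9.09 to 61.4%. RMRP depth was 13 to 71 events in controls against 1610 to 3338 with antibody, and its part in the difference was not tested.

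In 20-nt bins the same 2 bins led the RMRP profile in both groups. Bin 41 to 60 held 27.9 ± 3.59% of events and bin 221 to 240 held 24.4 ± 5.89% in QKI-5 libraries. In controls bin 221 to 240 came first, and the values of the bins were 22.9 ± 4.23% and 37.8 ± 14.1%. Bin 61 to 80 held 4.43 to 9.80% in QKI-5 libraries and 0 to 2.86% in controls, from 2, 0 and 0 control events. It was the only RMRP bin without overlap between groups, and in the other 13 bins the groups overlapped or were both empty. Pairs of QKI-5 libraries shared 81.0 to 89.9% of their profile, counted as the summed smaller share over bins. Pairs of controls shared 63.4 to 68.3% and pairs across groups 63.5 to 80.6%. All 52 positions hit in any control were also hit in a QKI-5 library, and 43 of them in all 3. These 52 made up 23.1% of the 225 positions hit with antibody. The region has 308 positions, so most were hit at the QKI-5 depth, and no agreement between groups is read from this overlap.

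RPPH1 was crosslinked mainly on its 5′ side. Positions 1 to 170 held 80.8, 78.4 and 81.7% of its events with antibody and 77.8, 70.6 and 76.9% in controls. All QKI-5 shares were above all control shares on this count, but the control with the most RPPH1 events on this side, replicate 1, had 14 of 18, with an interval of 52.4 to 93.6%. This order was lost under other counts. Over the interval with its flanks, the shares were 78.9, 63.7 and 81.4% with antibody and 73.7, 63.2 and 76.9% without. With each position counted once the means were 66.2% with antibody and 71.6% without. The main peak lay at positions 124 to 128 (20811443 to 20811447 on chromosome 14). It took 39.0, 18.9 and 34.4% of events with antibody and 21.1, 31.6 and 46.2% without, so the groups overlapped. A peak at 63 to 67 took 13.0, 14.4 and 20.9% with antibody, and 10.5, 0 and 7.69% without, from 2, 0 and 1 control events. The intervals of the controls reach up to 36.0%, so this difference was not resolved at the control depth. The ratio of events at 63 to 67 over 124 to 128 was 0.334, 0.763 and 0.607 with antibody and 0.500, 0 and 0.167 without, with overlap between groups. Over all 20-nt bins of RPPH1, QKI-5 lay above in 5, and in 13 the groups overlapped or were both empty. Among the 5, bin 61 to 80 held 17.1 to 24.6% with antibody and 0 to 15.4% without, from 2, 0 and 2 control events. The others of the 5 held 0 control events.

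Single libraries had RPPH1 peaks of their own. At position 0, QKI-5 replicate 2 held 158 events, 16.9% of its RPPH1 events, where QKI-5 replicates 1 and 3 held 23 and 6 (1.41 and 0.427%). Control replicates 1, 2 and 3 held 1, 2 and 0 events there. At position 306, QKI-5 replicate 3 held 66 events (4.69%) and QKI-5 replicates 1 and 2 held 3 and 0. Control replicate 3 held 3 events at position 306 and the other controls 0. At both positions the same replicate number had the most events in each group, but on only 2 and 3 control events. The positions were picked after the values were seen and replicate numbers were not taken as pairs, so no link is read from this match. QKI-5 profiles of RPPH1 shared 72.1 to 81.4% between libraries, less than those of RMRP, and controls shared 35.3 to 44.8%. Pairs across groups shared 45.4 to 74.0%, more than any pair of controls. The control profiles rest on 18, 17 and 13 events, and the part of depth in these values was not tested.

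RN7SK was crosslinked almost solely near its 3′ end. Positions 241 to 300 took 81.3, 92.0 and 92.0% of RN7SK events with antibody and 90.5, 100 and 100% in controls. Positions 1 to 166 held 26 of 978 events in QKI-5 replicate 1, 2 of 376 in replicate 2 and 4 of 763 in replicate 3, and 0 of 21, 13 and 11 in the controls. From position 25 to 202, a run of 178 nt or 53.6% of the interval, no event fell in any library, out of 2118 events with antibody and 45 without. RMRP and RPPH1 had no such gap, with longest empty runs between hit positions of 4 and 11 nt. At their 3′ ends 26 and 27 nt were empty. How many reads from this part of RN7SK could be placed uniquely on the genome was not tested.

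Within the 3′ part, RN7SK events clustered at positions 282 to 286 (52860699 to 52860703 on chromosome 6). This peak took 25.1, 31.1 and 32.9% of events with antibody and 42.9, 30.8 and 45.5% without. The groups overlapped, and the control values rest on 9, 4 and 5 events. The second peak, at 246 to 250, took 7.15, 9.31 and 7.34% with antibody and 4.76, 0 and 0% without, from 1 control event, and the control intervals reach up to 28.5%. Bin 241 to 260 held 11.0 to 15.96% of events in QKI-5 libraries and 0 to 7.69% in controls, while bin 261 to 280 held 19.9 to 21.2% against 23.1 to 36.4%. Bin 241 to 260 rests on 1, 1 and 0 control events. Over all RN7SK bins, QKI-5 lay above in 2 and below in 1, and in 14 the groups overlapped or were both empty. The most hit single nucleotide differed between QKI-5 libraries, at 282, 283 and 284 in replicates 1, 2 and 3. QKI-5 profiles shared 82.5 to 93.3% between libraries, control profiles 85.0 to 86.7%, and profiles across groups 65.4 to 88.7%.

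**Figure D3:**
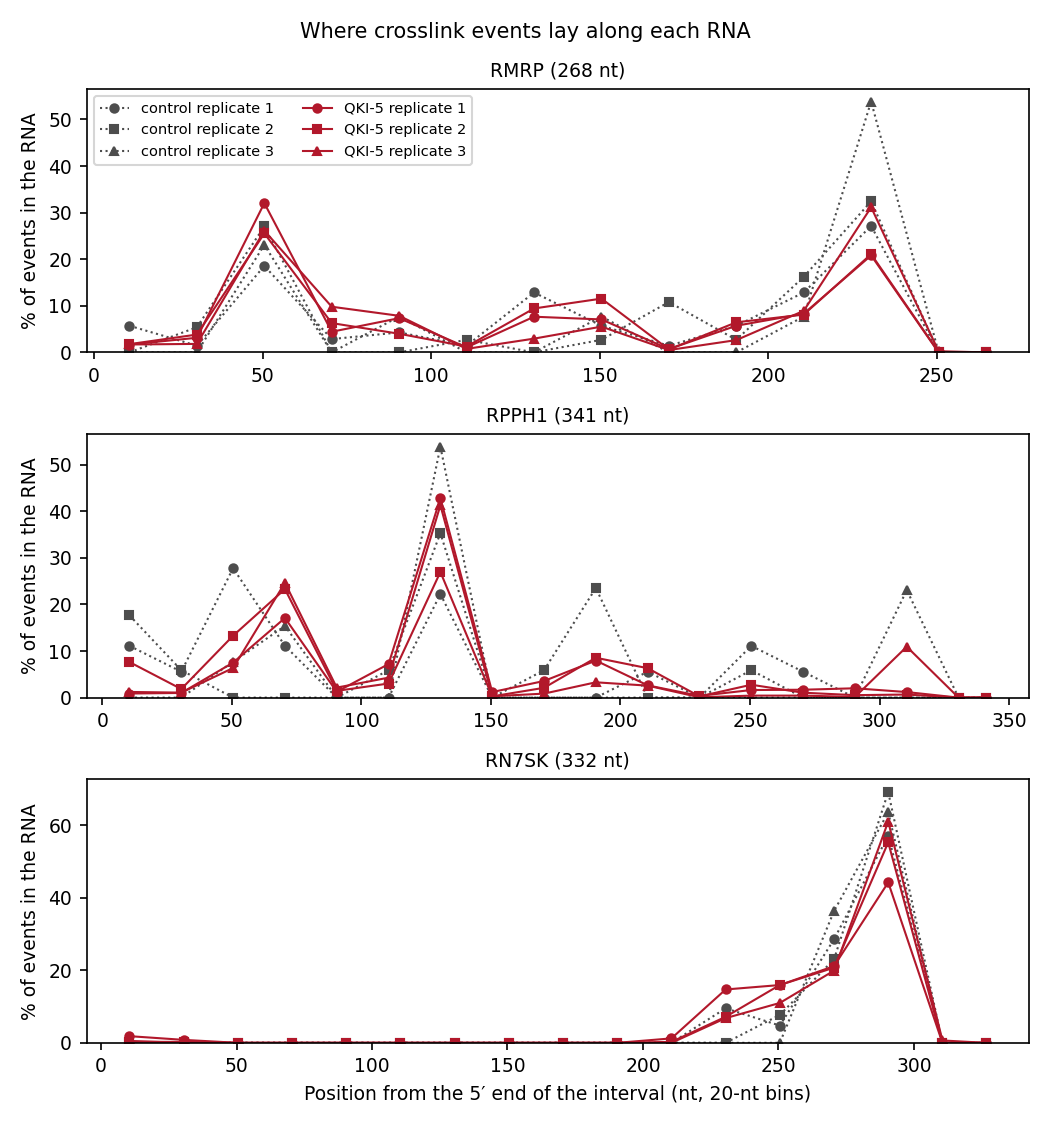
Share of an RNA's events in 20-nt bins (y axis, %) against the position from the 5′ end of the interval (x axis, nt), with QKI-5 libraries as solid red lines and controls as dotted grey lines. RMRP shows 2 peaks, in bins 41 to 60 and 221 to 240, RPPH1 peaks in bin 121 to 140, and most RN7SK events lie in bins 221 to 300, with few in bins 1 to 40, 201 to 220 and 301 to 320 and none in bins 41 to 200.

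**Figure D4:**
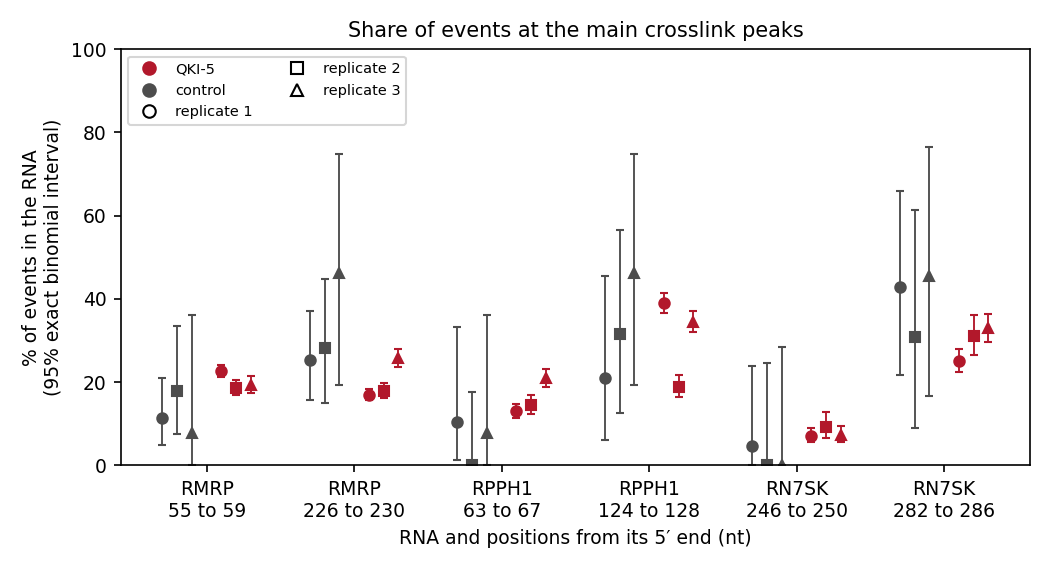
Share of an RNA's events (y axis, %, with 95% exact binomial intervals) at the first and second peaks of RMRP, RPPH1 and RN7SK, 1 point per library. The QKI-5 points lie above the controls at the second peak of each RNA, 55 to 59 in RMRP, 63 to 67 in RPPH1 and 246 to 250 in RN7SK. The peaks were picked on QKI-5 shares. The groups overlap at the first peak of each RNA, and the control intervals are wide.

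The 3′ terminal nucleotides were empty in each of the RNAs with events. The last position with an event was 242 in RMRP, 314 in RPPH1 and 303 in RN7SK, which left 26, 27 and 29 nt without any. In RN7SL1, RN7SL2 and RNY3 the last 35 nt were empty, on far fewer events. Whether reads of a minimum length were kept was not tested.

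The signal recognition particle RNA genes were near the limit of detection. RN7SL1 held 35, 6 and 2 events in QKI-5 replicates 1, 2 and 3, which is 4.81, 2.80 and 0.692 EPM, and 0 in each control. RN7SL2 held 18, 5 and 0 events with antibody, which is 2.47, 2.33 and 0 EPM, and 1, 0 and 0 without. These levels are below the control floors of 21.8, 72.3 and 101 EPM, so no difference between groups could be detected and no fold is given. The 2 genes and their many genomic copies share sequence, so reads may have been split between copies or dropped, and the share of such reads was not tested. In RN7SL1, 34 of 43 events with antibody lay in the 16 nt from 250 to 265. In RN7SL2, 13 of 23 lay in the 16 nt from 247 to 262, as did its 1 control event, at 254. RN7SL2 also held 10 of its 23 events at position -1 or 0, which may lie inside the RNA. In QKI-5 replicate 3, RN7SL1 at 2 events is under the floor.

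The Y RNA genes were empty or nearly so. RNY1 held 0 events on its strand in all 6 libraries, which allows up to 0.412, 1.40 and 1.04 EPM in the antibody libraries 1, 2 and 3. RNY3 held 8 events in QKI-5 replicate 1, or 1.10 EPM, and 0 in the other 5 libraries. Of those 8, 5 lay at position -1 or 0, which may also lie inside the RNA. On the opposite strand of RNY1 the QKI-5 libraries held 14, 2 and 1 events and the controls 0. Within 300 nt on the opposite strand, the QKI-5 libraries held 10 events for RPPH1 and 5 for RN7SL1, and 0 for RMRP, RN7SK, RN7SL2 and RNY3. The controls held 0 there for all 7. Y RNAs also have many genomic copies, and the loss of reads with several placements was not tested.

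For each RNA the window with the most similar pattern over the 6 libraries was sought among 118 windows with at least 30 control events, by the mean absolute difference of centred log2(EPM + 10). For RMRP this was chromosome 16, plus strand, 31190001 to 31200000, with a mean difference of 0.24, against a median of 0.65 over the windows. Its levels were 125, 138 and 146 EPM with antibody and 196, 241 and 101 EPM without, so control replicate 2 was its highest library, as in RMRP. For RN7SK it was chromosome 1, minus strand, 1320001 to 1330000, with a mean difference of 0.32 against a median of 0.80. That window held 87.3, 86.8 and 85.8 EPM with antibody and 138, 193 and 201 EPM without. The nearest window to RPPH1 differed by 0.51 against a median of 0.91. For RN7SL1, RN7SL2, RNY1 and RNY3 the pseudocount of 10 EPM exceeds all levels, so the windows found for them carry no information on their pattern.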

How the data were processed

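The submitters' processing notes name cutadapt and Bowtie, without versions, and hg19 as the build. The deposited files hold raw counts of crosslink events per nucleotide and strand, 1 library a file. The sources used here do not say whether barcodes merged PCR copies or how multiply aligned reads were handled.

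Events were summed over strand-specific 10 kb windows. Each RNA with 20 nt on either side was its own region, its events removed from the window. The members and lists were chosen with earlier results of these data known. All 7 RNAs are described, with the nearest window in pattern for each. Regions were fitted with edgeR 4.0.16 (R 4.3.3, limma 3.58.1, quasi-likelihood test, TMM, filterByExpr, group only, Benjamini-Hochberg adjustment) and, as an alternative, DESeq2 1.42.0. Python 3.11.15, numpy 2.4.6, pandas 2.3.3, scipy 1.17.1 and matplotlib 3.10.9 did the rest. The edgeR step was tested on simulated data. Depth was 29810 to 7283982 events a library, so control shares rest on few events. The planned values for other polymerase III transcripts, protein partners and cell type markers need an hg19 annotation and were not analysed here, and sequences of the RNAs are not used here.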

Additional observations from a re-analysis of the deposited data

How the results depend on the processing

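The fold changes of RMRP and RN7SK kept no fixed sign, and that of RPPH1 was negative only with each position counted once. With library totals the log2 fold change was -0.024 for RMRP and -0.34 for RN7SK, and with each position counted once it was -1.94 for RMRP, -1.36 for RPPH1 and -2.03 for RN7SK. RMRP and RN7SK were then called lower (2 of 3), where edgeR called 0.319% of 20702 regions lower and 0.126% higher. Counted once, an RNA can reach at most the length of its region, 308 nt for RMRP, 381 nt for RPPH1 and 372 nt for RN7SK. RMRP had 3338 events on 203 positions in QKI-5 replicate 1 and 71 on 39 in control replicate 1. This count is thus capped at high depth, and nothing is read from these 2 calls. The cause of the reversal was not tested. Leaving out 1 library gave -0.34 (without QKI-5 replicate 2) to 1.30 (without control replicate 1) for RMRP, 0.06 (without QKI-5 replicate 3) to 1.70 (without control replicate 2) for RPPH1, and -0.74 (without QKI-5 replicate 3) to 0.71 (without control replicate 2) for RN7SK. RMRP was also negative without QKI-5 replicate 3, at -0.0047, and RN7SK without QKI-5 replicates 1 and 2, at -0.11 and -0.35. In none of the fits on events was 1 of the 3 called.

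Main counts were 226 higher and 32 lower of 29960 regions. Library totals gave 23 and 58, each position counted once 26 and 66, DESeq2 size factors 85 higher, the DESeq2 Wald test 130 lower and no filter on low counts 6 lower. Leaving out QKI-5 replicate 1, 2 or 3 gave 28, 102 and 69 higher of 892, 951 and 937 tested. Without QKI-5 replicate 2, 89 were lower. Leaving out control replicate 1 or 2 gave 831 and 50 higher and 8 and 10 lower, of 52140 and 54520. These counts are thus not comparable. The cause was not tested.

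A fit with replicate number as a block had 0 calls higher and 0 lower in edgeR, with 2195 regions at an unadjusted p under 0.05, and the log2 fold changes were 0.80, 1.09 and 0.32 for RMRP, RPPH1 and RN7SK. Same-numbered libraries deviated together with correlations of -0.0031, 0.102 and 0.075 for numbers 1, 2 and 3, so the numbers were not taken as pairs. Libraries of numbers 2 and 3 correlated best with their own number in the other group, and those of number 1 did not. These small values do not settle whether the numbers mark pairs.

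The summed share of the 7 RNAs, QKI-5 over control, was 0.951, and 0.175 with each position counted once and 0.421 with events capped at 10 a position. Both of these counts limit what a short RNA can hold at the depth of the QKI-5 libraries, so no decrease is read from them. Counting each position once moved the 5′ part of RMRP (positions 1 to 134) to 52.4% with antibody and 39.5% without, that of RPPH1 (1 to 170) to 66.2% with antibody and 71.6% without, which reverses their order, and that of RN7SK (1 to 166) with antibody to 5.07%. Over the extended region the RPPH1 share was 74.7% with antibody and 71.3% without, and the groups overlapped. Controls limit precision, with 11 to 71 events an RNA.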
